A study of Mus musculus with 12 samples.

Results

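Chromatin accessibility around the genes of the urea cycle was examined in hepatocyte nuclei of fasted and fed mice. The members are the 8 genes Cps1, Nags, Otc, Ass1, Asl, Arg1, Slc25a15 and Slc25a13, and their peaks are those that the deposited table gives to one of these genes as the nearest. There were 67 such peaks among 52530. Each peak is a 200 bp window on mm10, and a peak listed for the nearest gene need not act on that gene. ATAC-seq reads open chromatin through a transposase that inserts adapters where DNA is accessible. The female HEP-INTACT mice carry a tag on the nuclear envelope of hepatocytes, by which these nuclei were pulled out of whole liver with beads. What drives the tag is not given in the sources used here. The groups, of 3 libraries each, were frozen liver of fasted mice, frozen liver of fed mice, fresh liver of fasted mice and fresh liver of fed mice. Fasted mice went without food for 16 h from ZT12, the onset of the active phase, and fed mice ate ad libitum and were sacrificed at that same hour. Every one of the 6 mice gave a frozen and a fresh library.

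The urea cycle turns ammonia released from amino acids into urea, which the kidney excretes. It runs partly in the mitochondrion and partly in the cytosol, and in the body it is complete mainly in hepatocytes around the portal vein. Fasting, glucagon and glucocorticoids are known to raise the activity of its enzymes in rodent liver, where amino acids from muscle are used to make glucose.

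In units of 1e+06 reads, the libraries held 3.69 to 14.5 in peaks, and the median peak had 51 to 217 reads. Peaks of the 8 genes received 6616 to 19907 reads per library. Start peaks, those within 1 kb of a gene start, were listed for 5 of 6 hepatocyte markers, with summed levels of 1362 to 2143 normalized reads in fasted and 1170 to 1609 in fed libraries. Ttr had none. Sox9, 1 of 4 bile duct markers, had 86.2 to 119 normalized reads in fasted and 65.1 to 137 in fed libraries. Reln, 1 of 4 stellate cell markers, had 77.6 to 125 in fasted and 51.2 to 134 in fed libraries. No start peak was listed for markers of endothelium (0 of 5), macrophages (0 of 5) or lymphocytes (0 of 4), but farther peaks were. All 5 endothelial markers had some, 16 in all, with 3 higher and 7 lower in fasted mice (limma, 62.5% called, beside 34.6% of all peaks), and summed levels of 1458 to 1577 in fasted and 1506 to 1697 in fed libraries. Adgre1 and Csf1r, 2 of 5 macrophage markers, had 1 peak each, of which 1 was lower, with sums of 55.6 to 108 in fasted and 89.3 to 161 in fed libraries. Of the 3 Reln peaks 1 was lower, and neither of the 2 bile duct peaks nor the 1 lymphocyte peak, at Ptprc, was called. Hepatocyte marker peaks, 73 in all, had 18 higher and 12 lower in fasted mice (limma, 41.1% called, beside the same 34.6%). Among the 9 of them within 1 kb of a start, 4 were higher and none lower (44.4% called, beside 24.2% of all peaks within 1 kb). The part of other cell types in the results was not tested. Fewer nuclei with an open site and less opening per nucleus cannot be told apart in such bulk libraries.

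4 promoters carry the contrasts described further on. The RefSeq windows run from 250 bases before to 50 bases after an annotated start (GRCm38.p6, the coordinates of mm10), and capitals mark the bases that fall in 1 listed peak, both of its ends included: the one of lowest fasting p among those of the gene that reach into the window. Bases in lower case may lie in another listed peak, as at Slc25a13 in the peak 11 bp upstream and at the end of the Ass1 window in a peak listed for Gm5424. The Nags window (chr11:102145263-102145562, plus strand) is marked with its start peak, which had nearly the same level in all groups. The Ass1 window (chr2:31470020-31470319, plus strand) is marked with a start peak that was not called for fasting, while a peak farther upstream was. The Slc25a15 window (chr8:22398572-22398871, minus strand) and the Slc25a13 window (chr6:6217124-6217423, minus strand) are marked with peaks that were called for fasting and for freezing.
Nags: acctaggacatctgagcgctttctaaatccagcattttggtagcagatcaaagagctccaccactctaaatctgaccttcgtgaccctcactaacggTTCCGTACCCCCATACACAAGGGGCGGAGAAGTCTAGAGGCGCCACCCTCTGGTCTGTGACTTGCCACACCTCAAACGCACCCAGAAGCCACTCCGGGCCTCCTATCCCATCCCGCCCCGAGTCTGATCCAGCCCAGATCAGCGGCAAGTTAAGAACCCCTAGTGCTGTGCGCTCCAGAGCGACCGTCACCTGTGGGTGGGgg
Ass1: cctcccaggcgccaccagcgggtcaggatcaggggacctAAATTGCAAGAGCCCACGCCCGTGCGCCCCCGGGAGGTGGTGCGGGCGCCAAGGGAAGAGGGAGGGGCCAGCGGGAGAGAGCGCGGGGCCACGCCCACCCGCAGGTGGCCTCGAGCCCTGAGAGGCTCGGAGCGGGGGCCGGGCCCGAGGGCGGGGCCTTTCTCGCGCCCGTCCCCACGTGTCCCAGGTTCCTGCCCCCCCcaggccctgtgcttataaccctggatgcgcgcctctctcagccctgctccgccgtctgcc
Slc25a15: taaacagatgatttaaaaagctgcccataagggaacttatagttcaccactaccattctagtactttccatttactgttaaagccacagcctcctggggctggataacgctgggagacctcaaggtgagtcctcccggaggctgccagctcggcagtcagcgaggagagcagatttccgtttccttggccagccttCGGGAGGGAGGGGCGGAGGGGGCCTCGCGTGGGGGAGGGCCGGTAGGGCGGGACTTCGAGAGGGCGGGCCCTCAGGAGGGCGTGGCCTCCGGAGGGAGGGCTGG
Slc25a13: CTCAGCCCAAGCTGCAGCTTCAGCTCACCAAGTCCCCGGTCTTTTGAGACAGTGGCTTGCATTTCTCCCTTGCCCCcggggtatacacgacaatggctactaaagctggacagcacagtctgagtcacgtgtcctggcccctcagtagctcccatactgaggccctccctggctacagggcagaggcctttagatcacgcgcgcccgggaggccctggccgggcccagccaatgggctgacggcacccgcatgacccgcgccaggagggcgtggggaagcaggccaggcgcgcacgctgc

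RefSeq windows were matched for 5 of the 8 genes, in 6 windows since Slc25a15 has a pair of starts. Cps1, Asl and Arg1 are named only. The share of G and C was 74.0% at Ass1, 65.0% at Slc25a13, 60.7% at the Slc25a15 window shown, 79.0% at its other window, 57.7% at Nags and 44.3% at Otc, beside a median of 52.7% over 32851 promoters. On both strands the 6 windows were searched for TGACGTCA (CREB), TTGCNNAA (C/EBP), AGAACA (glucocorticoid receptor), CAAAGTCCA (HNF4), TGTTTAC (FOX) and AGGTCA (nuclear receptors). These letters occurred in 1.79%, 10.8%, 19.0%, 0.475%, 3.65% and 16.3% of all promoters, in that order. AGGTCA was found at Nags, on the opposite strand as TGACCT with its first base at position -178 from the start. No other match was found in the 6 windows, which says only that these letters are not in them.

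Across the 8 genes most peaks did not pass the test for fasting. Of the 67 peaks, 4 were higher and 9 were lower in fasted mice and 54 were not called (limma on log2 of normalized reads + 1, 3 against 3 mice, Benjamini-Hochberg adjustment over all peaks, adjusted p under 0.05). That is 19.4% of the peaks of these genes, read beside a background of 34.6% of all 52530 peaks called, 16.5% higher and 18.1% lower. The called peaks belonged to Nags, Ass1, Arg1, Slc25a15 and Slc25a13, and none to Cps1, Otc or Asl. The median log2 difference was 0.00 for the 67 peaks and 0.05 for all peaks, and the median size of the difference without its sign was 0.15 and 0.22. These counts changed when 1 mouse was left out. The 4 higher calls became 1 without fed B and 2 without fed C, fasted A or fasted C. The 9 lower calls became 15 without fasted C. Over all peaks, 18163 calls became 11500 without fed B, 14686 without fed C, 12411 without fasted A and 16807 without fasted C.

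Near and far peaks are set against their own backgrounds. Within 1 kb of a start 2 of 16 peaks were higher and 1 was lower in fasted mice, where the background was 19.7% higher and 4.59% lower. Beyond 1 kb 2 of 51 were higher and 8 were lower, where the background was 14.8% higher and 25.4% lower. In 3 of the 67 peaks (4.48%) the 6 fasted libraries did not overlap the 6 fed ones, all with fasted lower, beside 12.9% of all peaks. Within frozen liver alone 26.9% of the 67 were apart in either direction, and within fresh liver 25.4%, beside 45.1% of all peaks in each. Windows that overlap share reads, which concerns 9 of the 67 peaks, at Ass1, Arg1 and Slc25a13. When libraries were scaled to the median of peaks near gene starts, the fasting difference of the median peak moved by -0.12 on the log2 scale. It came to -0.12 for the 67 and -0.08 for all peaks. Then 0 peaks of these genes were higher and 14 lower, beside 16910 of all 52530 peaks called.

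**Figure D1:**
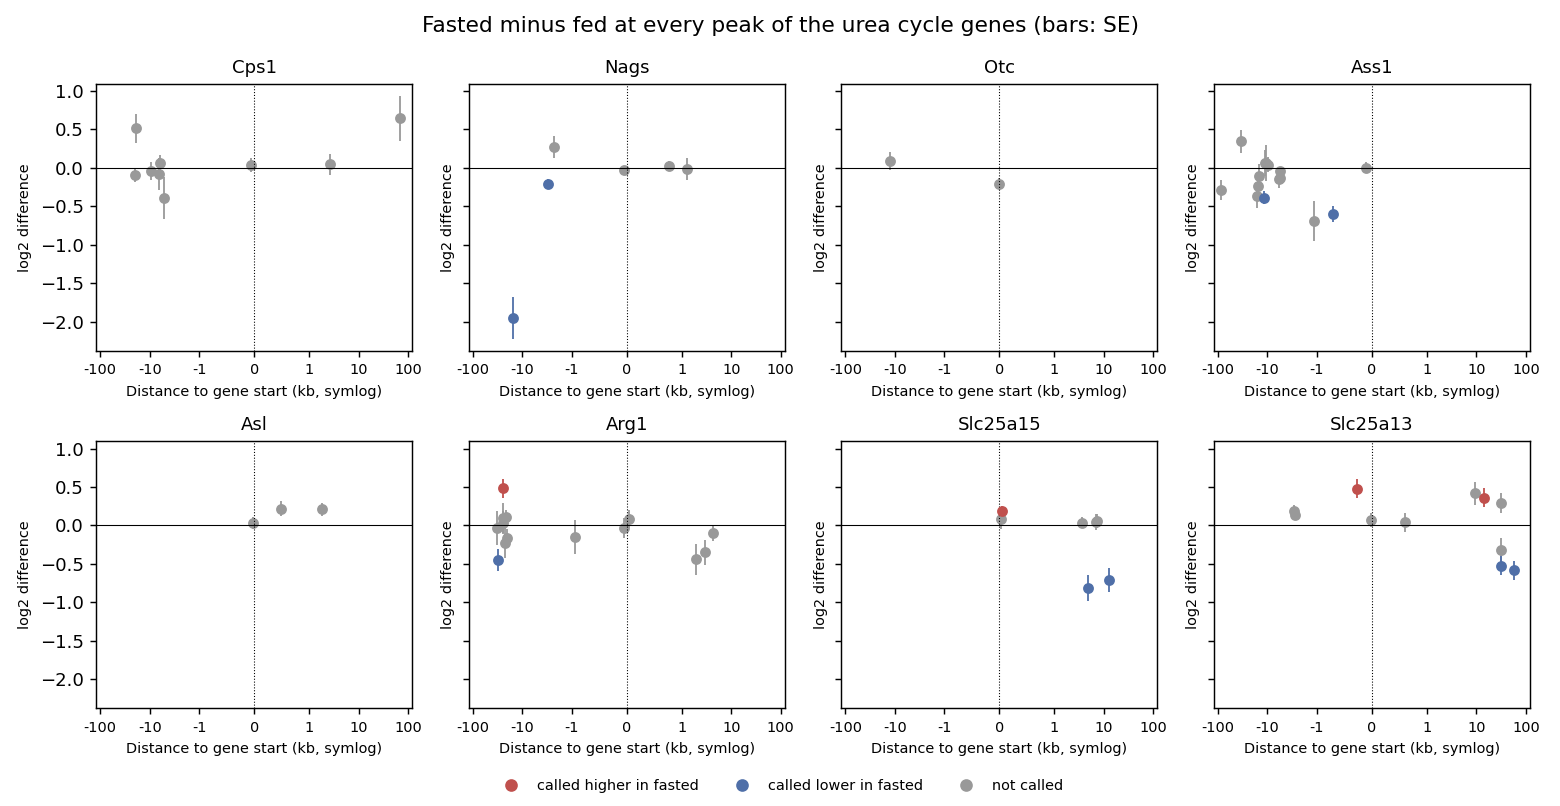
Log2 difference, fasted minus fed, of all 67 peaks against their distance in kb to the annotated start (symmetric log axis), a panel per gene, with standard errors as bars. The 9 peaks called lower lie mostly away from the starts, with the Nags peak at -1.95 far below the others.

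The peaks nearest to the gene starts stood at nearly the same level in both feeding states. For none of the 8 genes was the peak nearest to the start called for fasting, and the differences lay between -0.21 and 0.09 on the log2 scale (limma, adjusted p 0.0535 to 0.989). At Slc25a15 this choice matters. The peak taken lies 35 bp inside 1 listed start and had a mean level of 128 over the 12 libraries. A stronger peak 46 bp inside its other listed start, with a mean of 393, was called higher (0.19 ± 0.06, limma, adjusted p = 0.0355). For each gene the peaks below are the nearest ones. These peaks had a percentile of 56.1 to 97.3 among all peaks by mean level. Levels below are normalized reads per 200 bp window, so windows have equal length.

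Cps1 makes carbamoyl phosphate from ammonia and bicarbonate, the entry step of the cycle. Its start peak (51 bp upstream, chr1:67122876-67123076) had 282, 219 and 274 normalized reads in frozen fasted and 236, 269 and 227 in frozen fed libraries. In fresh liver, fasted libraries had 168, 151 and 177 and fed libraries 176, 166 and 157. Fasted and fed overlapped in both preparations, with a log2 difference of 0.03 ± 0.09 (SE, limma, adjusted p = 0.796), while frozen lay above fresh throughout. None of the 9 Cps1 peaks was called. The Cps1 peak of lowest p, 18968 bp upstream (chr1:67103959-67104159), averaged 179 ± 50.7 in fasted and 119 ± 13.6 in fed mice (SD, n = 3 each), a log2 difference of 0.52 ± 0.19 (limma, adjusted p = 0.0581). In frozen liver alone it was higher in fasted mice, by 0.65 ± 0.19 (limma, adjusted p = 0.0250), and over both preparations it was called without fasted B and with the mouse as a replicate block (limma, adjusted p = 0.0128).

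Nags makes N-acetylglutamate, the activator without which CPS1 is inactive. Its start peak (53 bp upstream, chr11:102145360-102145560) averaged 295 ± 10.4 in fasted and 302 ± 11.01 in fed mice, a log2 difference of -0.03 ± 0.06 (limma, adjusted p = 0.682). The 12 libraries lay between 273 and 332.

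The steepest change of the 67 peaks lay 15418 bp upstream of Nags (chr11:102129995-102130195), within the long noncoding RNA gene Gm39394. Frozen fasted libraries had 10.01, 11.3 and 11.1 and frozen fed libraries 34.5, 31.9 and 32.4 normalized reads. Fresh fasted libraries had 6.79, 20.8 and 10.2 and fresh fed libraries 63.0, 66.4 and 61.8. Fasted libraries did not overlap fed ones, and the fasted mean was 0.242 times the fed mean. The log2 difference was -1.95 ± 0.27 (limma, adjusted p = 0.000808), and this peak was called under all 11 alternatives that could test it. It is a weak site, at a percentile of 0.1 among all peaks, resting on 5 to 40 reads in fasted and 20 to 94 in fed libraries. How peaks entered the merged list is not given. A site listed only because it was high in fed libraries would show a fall for that reason, which was not tested. A stronger Nags peak 2966 bp upstream (chr11:102142447-102142647) was lower in fasted mice, 283 ± 12.6 against 328 ± 19.3 in fed mice, a log2 difference of -0.21 ± 0.07 (limma, adjusted p = 0.0345). That call was lost without fasted A, fasted B, fed A or fed B. The remaining 3 Nags peaks were not called.

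Otc joins carbamoyl phosphate and ornithine to citrulline in the mitochondrion. Only 2 peaks were listed for it. Its start peak (3 bp upstream, chrX:10252202-10252402) had 145, 147 and 138 normalized reads in frozen fasted and 192, 170 and 166 in frozen fed libraries. Fresh fasted libraries had 166, 183 and 179 and fresh fed libraries 192, 185 and 197. In each preparation fasted lay below fed without overlap, yet the log2 difference of -0.21 ± 0.07 just missed the threshold (limma, adjusted p = 0.0535). It was called after scaling to peaks near gene starts and after quantile normalization. The other Otc peak, 12619 bp upstream, was not called.

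Slc25a15, the mitochondrial carrier that exchanges ornithine for citrulline, had 3 called peaks. The peak 46 bp inside one of its listed starts (chr8:22398475-22398675) was higher in fasted mice, 420 ± 23.2 against 365 ± 17.9 in fed mice, by 0.19 ± 0.06 (limma, adjusted p = 0.0355). This call was lost without fasted A, fasted C, fed A or fed C and after scaling to peaks near gene starts. The peak 35 bp inside its other listed start was not called (0.09 ± 0.13, limma, adjusted p = 0.622).

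A pair of intronic Slc25a15 peaks was lower in fasted mice. At 12947 bp into the gene (chr8:22385230-22385430) frozen fasted libraries had 44.6, 53.2 and 62.3 and frozen fed libraries 85.8, 115 and 101 normalized reads. The values in fresh liver were 56.3, 80.5 and 79.1 in fasted and 104, 109 and 94.6 in fed libraries. The groups did not overlap, and the log2 difference was -0.71 ± 0.15 (limma, adjusted p = 0.00620). At 4894 bp into the gene (chr8:22393283-22393483) fasted mice averaged 34.0 ± 3.40 and fed mice 60.4 ± 6.63, a difference of -0.82 ± 0.17 (limma, adjusted p = 0.00561). This site is weak, at a percentile of 3.9.

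Slc25a13, or citrin, exports aspartate from the mitochondrion and so supplies the nitrogen that ASS1 adds. Fasting calls were made at 4 of its 11 peaks, 2 in each direction. The peak 275 bp upstream (chr6:6217348-6217548), part of which is in capitals above, had 127, 137 and 142 normalized reads in frozen fasted and 92.9, 78.0 and 78.9 in frozen fed libraries. Fresh fasted libraries had 46.8, 52.0 and 44.1 and fresh fed libraries 38.2, 35.9 and 44.7. Fasted was above fed without overlap in frozen liver but overlapped it in fresh liver. Over both preparations it was higher by 0.48 ± 0.13 (limma, adjusted p = 0.0167), a call lost without fed B and after scaling to peaks near gene starts. The fasting difference was 0.70 ± 0.14 in frozen and 0.26 ± 0.20 in fresh liver, but the test of that difference did not pass (limma interaction, adjusted p = 0.969). That test did not pass with the mouse as a replicate block either (limma interaction, adjusted p = 0.352). The peak nearest to the start, 11 bp upstream, was not called (0.07 ± 0.09, limma, adjusted p = 0.549).

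Inside Slc25a13, 14481 bp from the start, a peak was higher in fasted mice by 0.36 ± 0.12 (limma, adjusted p = 0.0459), a call lost under 7 of 12 alternatives, among them each fasted mouse left out and fed B or fed C left out. Farther into the gene the direction turned. At 31914 bp (chr6:6185159-6185359) fasted mice averaged 135 ± 22.6 and fed mice 195 ± 16.7, and at 56294 bp (chr6:6160779-6160979) fasted mice averaged 93.2 ± 12.5 and fed mice 138 ± 9.41. Both were lower, with differences of -0.52 ± 0.12 (limma, adjusted p = 0.0102, lost without fed B) and -0.58 ± 0.12 (limma, adjusted p = 0.00587). A window next to the first of these, at 31594 bp, had a difference of 0.29 ± 0.13 and was not called (limma, adjusted p = 0.0991).

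Ass1 condenses citrulline and aspartate to argininosuccinate in the cytosol. Its start peak (111 bp upstream, chr2:31470059-31470259) was among the most open of these genes and averaged 419 ± 23.6 in fasted and 426 ± 26.1 in fed mice, a log2 difference of 0.00 ± 0.07 (limma, adjusted p = 0.989). A neighbour upstream behaved otherwise. The peak 700 bp upstream (chr2:31469470-31469670) had 112, 107 and 105 normalized reads in frozen fasted and 174, 188 and 144 in frozen fed libraries. In fresh liver there were 81.4, 114 and 110 in fasted and 141, 169 and 141 in fed libraries. All 6 fasted libraries lay below all 6 fed ones, and the log2 difference was -0.60 ± 0.11 (limma, adjusted p = 0.00287). The peak 11587 bp upstream (chr2:31458583-31458783) was lower too, 197 ± 3.23 in fasted and 258 ± 28.7 in fed mice (-0.39 ± 0.09, limma, adjusted p = 0.00884). The other 13 Ass1 peaks were not called. Of these, the peak 1127 bp upstream had a difference of -0.69 ± 0.26 (limma, adjusted p = 0.0637), and it was called lower with the mouse as a replicate block (adjusted p = 0.0185) and without fasted C or fed C. The block also called a pair of peaks not described here, Ass1 at 16522 bp upstream (-0.36, adjusted p = 0.0361) and Slc25a13 at 9165 bp into the gene (0.42, adjusted p = 0.0128).

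The table's gene names divide the Ass1 locus. Of the 15 peaks listed for Ass1, 9 lie within the RefSeq body of the neighbouring gene Hmcn2 and none in the body of Ass1 itself (chr2:31470270-31520670). The 4 peaks inside the Ass1 body are listed instead for Gm5424, a transcribed pseudogene that RefSeq places on chromosome 10, although all 5 peaks listed for Gm5424 lie on chromosome 2. They are therefore not among the 67. None of the 4 was called for fasting. The first, 25 bp into Ass1 (chr2:31470195-31470395), overlaps the Ass1 start peak by 64 bp and averaged 364 ± 55.1 in fasted and 361 ± 28.0 in fed mice (0.03 ± 0.11, limma, adjusted p = 0.846). In the third, 12504 bp into the gene, fasted mice had 51.1 ± 25.6 and fed mice 79.9 ± 16.2 (-0.73 ± 0.32, limma, adjusted p = 0.0991).

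Asl splits argininosuccinate into arginine and fumarate. Its 3 peaks lie within 1835 bp of the start and none was called. The start peak (27 bp upstream, chr5:130024308-130024508) averaged 371 ± 21.3 in fasted and 365 ± 35.3 in fed mice (0.03 ± 0.08, limma, adjusted p = 0.798). The peak 1835 bp into the gene had a difference of 0.21 ± 0.08 (limma, adjusted p = 0.0669).

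Arg1 releases urea from arginine and returns ornithine to the cycle. Its start peak (45 bp into the gene, chr10:24927325-24927525) averaged 197 ± 23.8 in fasted and 185 ± 25.7 in fed mice (0.09 ± 0.12, limma, adjusted p = 0.578). Of its 14 peaks 8 lie 20467 to 31753 bp upstream, within the long noncoding RNA gene Gm36228, and the pair called for fasting is among these 8. At 24866 bp upstream (chr10:24952236-24952436) frozen fasted libraries had 112, 94.1 and 127 and frozen fed libraries 94.1, 70.1 and 72.7 normalized reads. Fresh fasted libraries had 121, 121 and 133 and fresh fed libraries 99.4, 82.3 and 88.0. Fasted lay above fed without overlap in both preparations, in frozen liver by less than the rounding shows, and the peak was higher by 0.48 ± 0.13 (limma, adjusted p = 0.0165). At 30963 bp upstream (chr10:24958333-24958533) fasted mice averaged 84.4 ± 9.46 and fed mice 116 ± 21.3, a lower peak with a difference of -0.45 ± 0.14 (limma, adjusted p = 0.0360). The first call was lost without fed B and after scaling to peaks near gene starts, and the second without fasted A, fasted B, fed A or fed B.

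**Figure D2:**
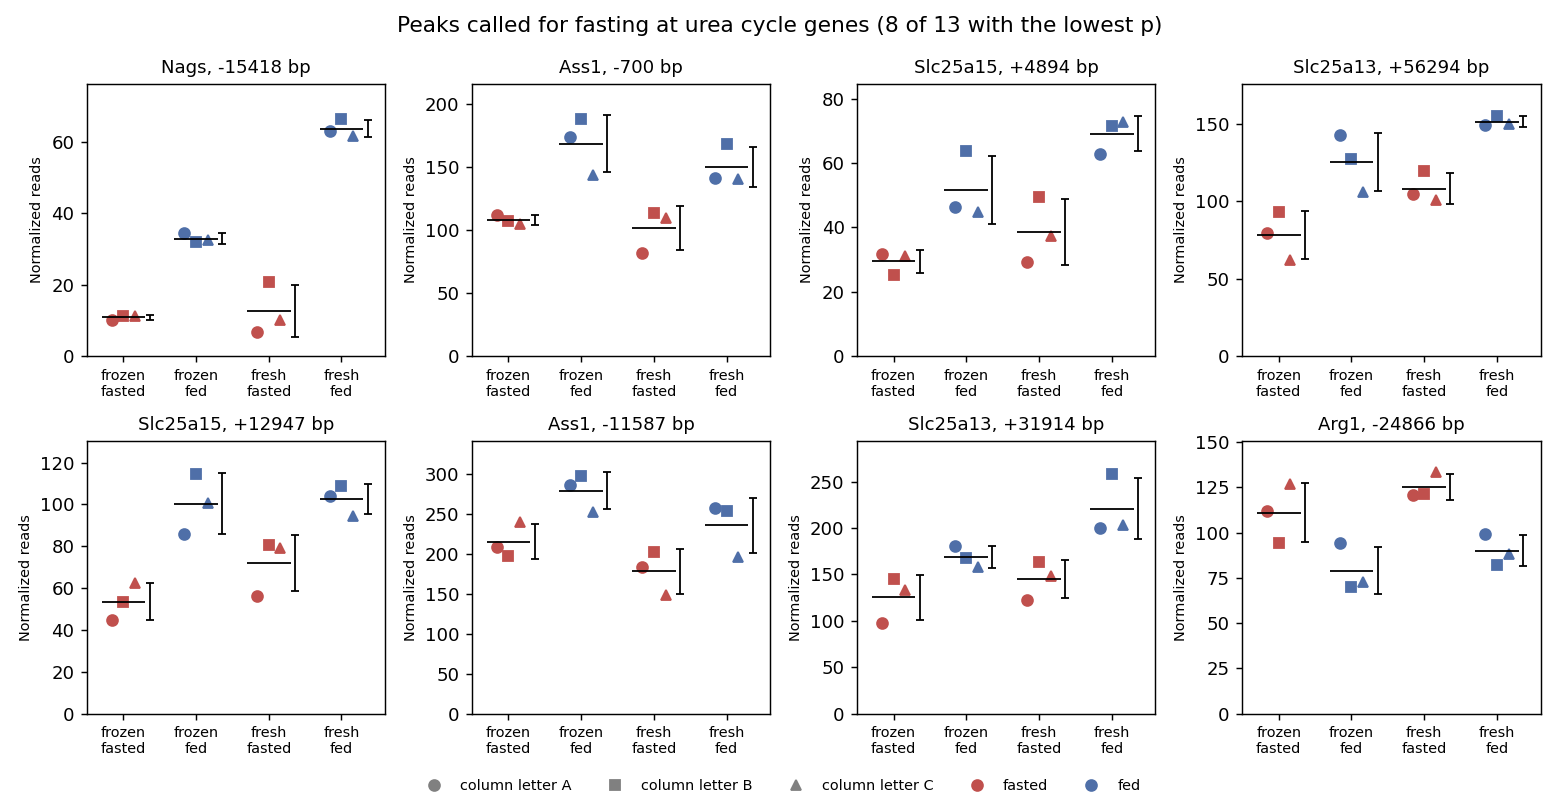
Normalized reads in every library for the 8 of 13 peaks called for fasting with the lowest p, with the mean as a line and the SD (n = 3) as a bar, frozen groups left of fresh ones and fasted left of fed. At Nags 15418 bp upstream, Ass1 700 bp upstream and Slc25a15 12947 bp into the gene, all fasted libraries lie below all fed ones.

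Of the 13 calls, 6 were made under every alternative that could test them, and all 6 were lower in fasted mice. They are the peaks of Nags at 15418 bp, Ass1 at 700 and 11587 bp, Slc25a15 at 4894 and 12947 bp, and Slc25a13 at 56294 bp. None of them is the peak nearest to a gene start. Nags at 15418 bp and Slc25a15 at 4894 bp are weak sites, and how they entered the merged list is not given.

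**Figure D3:**
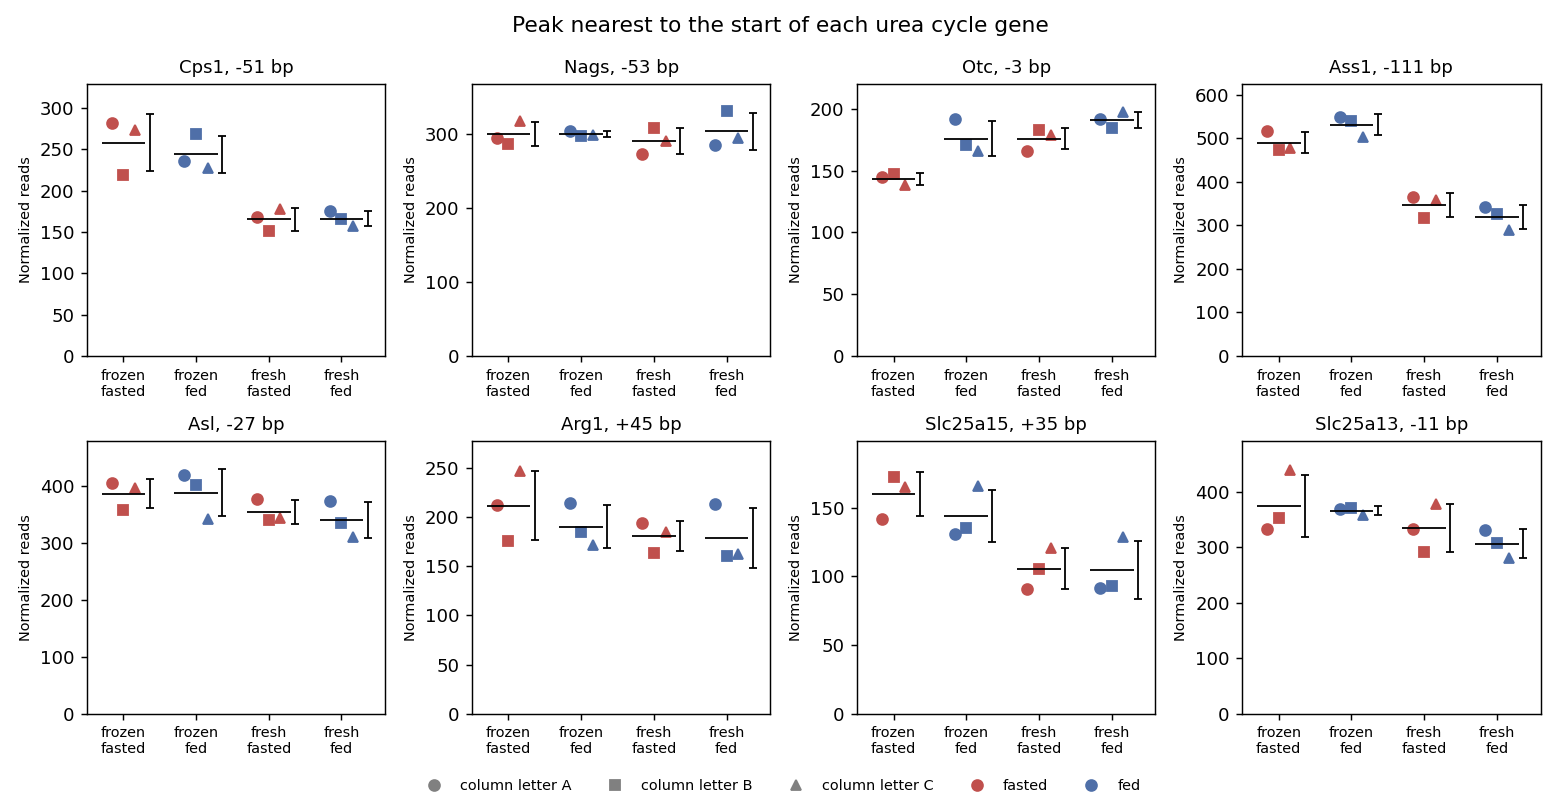
Normalized reads in every library for the peak nearest to the start of each gene, with the mean as a line and the SD (n = 3) as a bar, frozen groups left of fresh ones and fasted left of fed. Over both preparations fasted and fed differ by 0.21 or less on the log2 scale, while frozen lies above fresh at Cps1, Ass1 and Slc25a15. For Slc25a15 the peak at 35 bp is shown, not the one at 46 bp that was called higher in fasted mice.

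Fasting was also tested within each preparation, on the same mice. In frozen liver 4 of the 67 peaks were higher and 9 lower, with backgrounds of 12.8% higher, 15.0% lower and 27.8% in all. In fresh liver 3 were higher and 12 lower, with backgrounds of 11.4%, 16.1% and 27.6%. Ass1 held 6 of the 12 lower calls in fresh liver and 2 of the 9 in frozen liver. One of the 6, the peak 5669 bp upstream, had a difference of 0.04 ± 0.09 in frozen and -0.31 ± 0.08 in fresh liver (limma, adjusted p = 0.765 and 0.0115). The counts changed when 1 mouse was left out. In frozen liver the higher calls were 1 without fed B, fasted A or fasted C and 2 without fed C, and the lower calls were 3 without fed A or fed B and 4 without fasted A. In fresh liver the lower calls were 4 without fed B, 6 without fed A and 7 without fasted A. Over all peaks, with 1 mouse left out, 14578 calls in frozen liver became 8711 to 14001. The 14477 in fresh liver became 9747 to 14642. In the authors' deposited table, 14 of the 67 peaks were called in frozen liver (5 higher, 9 lower, 20.9%, beside 29.5% of all peaks) and 11 in fresh liver (2 higher, 9 lower, 16.4%, beside 23.1%).

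The difference of the fasting effect between frozen and fresh liver was tested directly. No peak of the table passed (limma interaction, background 0.0%), with 4 of the 67 and 2702 of all peaks at an unadjusted p under 0.05. With the mouse as a replicate block, 395 peaks passed, 1 of them of these genes. This was the Nags peak 2330 bp upstream (chr11:102143083-102143283), with 137, 167 and 142 normalized reads in frozen fasted and 166, 134 and 160 in frozen fed libraries. Fresh fasted libraries had 159, 189 and 162 and fresh fed libraries 134, 79.7 and 135. Fasted overlapped fed in frozen liver and lay above it without overlap in fresh liver. The fasting difference was -0.04 ± 0.13 in frozen and 0.58 ± 0.18 in fresh liver, and their difference was -0.62 ± 0.14 with the replicate block (limma, adjusted p = 0.0301) and -0.62 ± 0.24 without it (adjusted p = 0.939).

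Between frozen and fresh liver more peaks of these genes were called, mostly higher in frozen liver. Of the 9 peaks within 1 kb of hepatocyte marker starts, 6 were higher and 1 lower in frozen liver. That is 77.8% called, beside 65.4% of all peaks within 1 kb (limma). The start peaks of the 5 markers summed to 1511 to 2143 in frozen and 1170 to 1474 in fresh libraries, without overlap. Of all 73 hepatocyte marker peaks, 20 were higher and 11 lower (42.5%, beside 61.5% of all peaks). Their sums overlapped, at 9574 to 11365 in frozen and 9034 to 9775 in fresh libraries. The 2 bile duct peaks were higher, and of 16 endothelial peaks 3 were higher and 5 lower. Of the 2 macrophage peaks 1 was lower, and of the 3 Reln peaks 1 was higher and 1 lower. The part of these markers in the result was not tested. In frozen liver, compared with fresh liver, 27 of the 67 peaks were higher and 6 lower (limma, 12 libraries, feeding state as covariate), which is 49.3%, beside a background of 61.5% called, 28.7% higher and 32.8% lower. This fit left out that each mouse gave a frozen and a fresh library. With the mouse as a replicate block, 33 were higher and 13 lower, beside 36805 of all 52530 peaks called. At the median, the difference was 0.16 on the log2 scale for the 67 peaks and -0.05 for all peaks. Without the lowest 25% of peaks the median over all peaks turned to 0.05, and after scaling to peaks near gene starts that of the 67 was 0.08. In 9 of the 67 (13.4%) the 6 frozen libraries lay above the 6 fresh ones without overlap, and in none below. Of all 52530 peaks 26.9% were apart in either direction, 7961 with frozen above and 6144 with frozen below.

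The steepest freezing difference was at the Slc25a13 peak 275 bp upstream, which averaged 109 ± 29.4 in frozen and 43.6 ± 5.85 in fresh libraries (SD, n = 6 each), a log2 difference of 1.27 ± 0.12 (limma, adjusted p = 9.02e-08). Its neighbour 11 bp upstream differed by 0.21 ± 0.07 (limma, adjusted p = 0.0205). Cps1 had a peak 6222 bp upstream (chr1:67116705-67116905) at 252 ± 32.1 in frozen and 125 ± 14.1 in fresh libraries (1.00 ± 0.09, limma, adjusted p = 7.74e-08). Its start peak was higher as well, at 251 ± 27.1 in frozen and 166 ± 10.4 in fresh libraries. At Arg1 the peak 21091 bp upstream (chr10:24948461-24948661) averaged 270 ± 28.2 in frozen and 137 ± 10.8 in fresh libraries (0.97 ± 0.07, limma, adjusted p = 9.96e-09), and no other of the 14 Arg1 peaks was called higher without the replicate block. With the block the Arg1 peaks 20467 bp upstream (0.19, limma, adjusted p = 0.00595) and 45 bp into the gene were called higher too.

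Within 1 kb of a start 9 of 16 peaks were higher and 2 lower in frozen liver. That is 68.8% called, close to the 65.4% of all 18534 such peaks, of which 6974 were higher and 5139 lower (limma). Beyond 1 kb 18 of 51 were higher and 4 lower (43.1%, beside 59.4% of all such peaks). Of all 33996 peaks beyond 1 kb, 8119 were higher and 12084 lower. Of the peaks nearest to the start of each gene, 6 of 8 were called, with differences that varied among the genes. Those of Ass1 (0.62 ± 0.06), Cps1 (0.59 ± 0.07), Slc25a15 at 35 bp (0.53 ± 0.10), Slc25a13 at 11 bp (0.21 ± 0.07) and Asl (0.16 ± 0.06) were higher in frozen liver, and that of Otc was lower (-0.21 ± 0.07, limma, adjusted p = 0.0110). The differences at Nags (0.02 ± 0.05) and Arg1 (0.16 ± 0.09) did not pass the test, but with the replicate block Arg1 was called higher (limma, adjusted p = 0.0348). For Slc25a15 the peak at 46 bp averaged 486 ± 50.4 in frozen and 299 ± 21.9 in fresh libraries (0.69 ± 0.05, limma, adjusted p = 7.27e-09). The Nags peak of lowest p, 773 bp into the gene, was higher by 0.34 ± 0.05 (limma, adjusted p = 4.60e-05). For Asl it was the peak 489 bp into the gene, higher by 0.26 ± 0.09 (limma, adjusted p = 0.0224), and for Otc the peak 12619 bp upstream, higher by 0.33 ± 0.09 (limma, adjusted p = 0.00486). The calls at the starts of Asl and Slc25a13 were lost under 6 and 4 of 12 alternatives, and under quantile normalization the difference was -0.0097 at Asl and -0.13, a call, at Nags.

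The 6 peaks lower in frozen liver were the Otc start peak, a pair at Arg1 (942 and 30963 bp upstream), 1 at Slc25a15 (4894 bp) and a pair at Slc25a13 (31914 and 56294 bp). Their differences ran from -0.21 to -0.42 on the log2 scale. The block called 7 more peaks lower, Nags at 15418 bp, Ass1 at 14651 and 16522 bp, and Arg1 at 24866 and 31753 bp upstream, and Slc25a15 at 12947 bp and Slc25a13 at 31245 bp into the gene. Among the first 6, Arg1 at 30963 bp, Slc25a15 at 4894 bp and both Slc25a13 peaks were also lower in fasted mice.

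**Figure D4:**
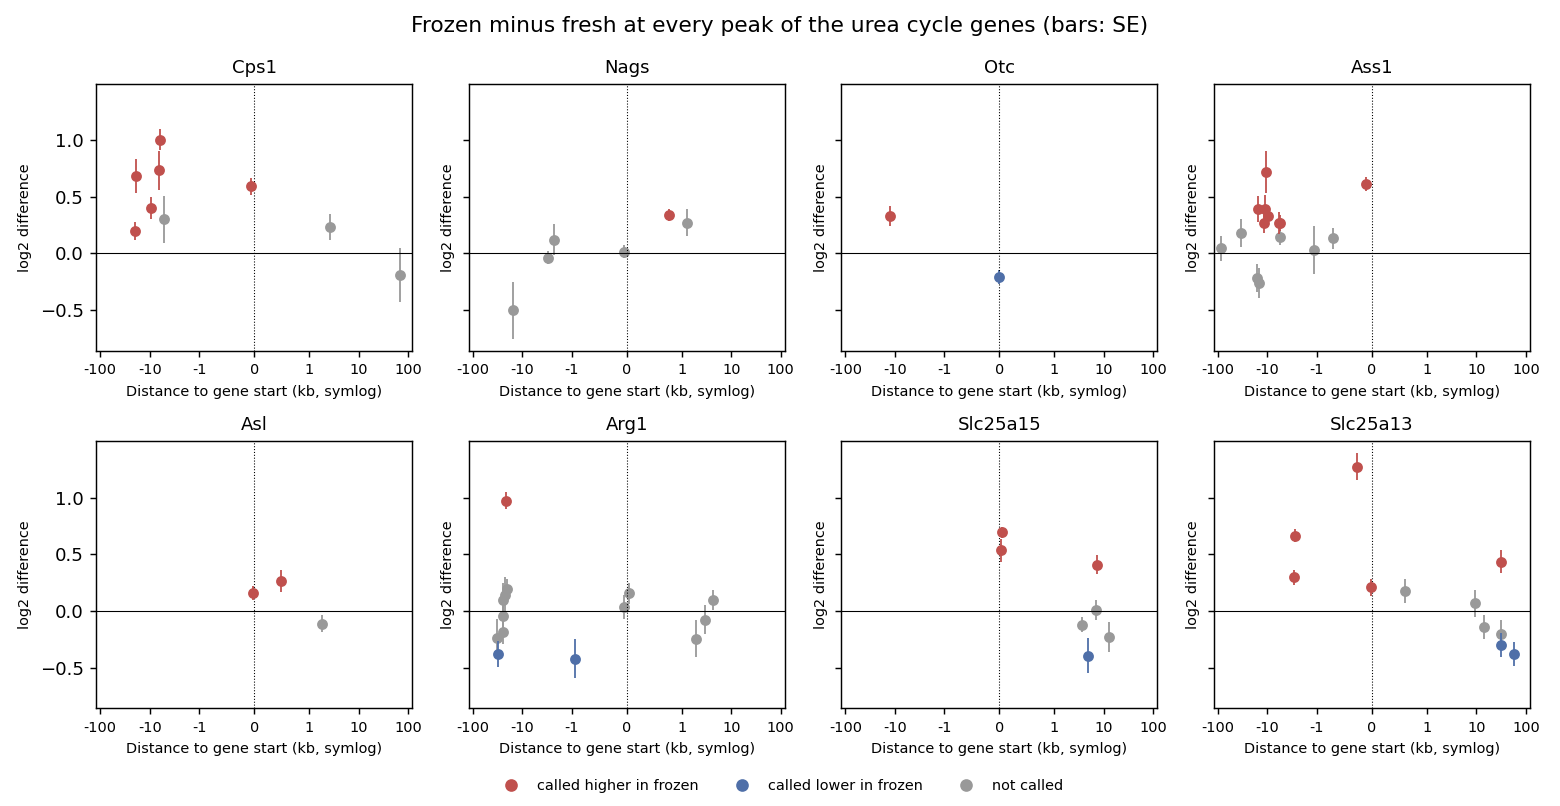
Log2 difference, frozen minus fresh, of all 67 peaks against their distance in kb to the annotated start (symmetric log axis), a panel per gene, with standard errors as bars. Of these, 27 are called higher and 6 lower in frozen liver, with the Slc25a13 peak at 1.27 the farthest from 0.

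Summed over all peaks of a gene, fasted and fed mice were close. The ratio of summed normalized reads, fasted over fed, was 1.03 for Cps1, 0.948 for Nags, 0.955 for Otc, 0.930 for Ass1, 1.07 for Asl, 0.980 for Arg1, 1.01 for Slc25a15 and 1.05 for Slc25a13. Ass1 summed to 3426 ± 378 in fasted and 3684 ± 354 in fed mice, and Cps1 to 1308 ± 173 in fasted and 1268 ± 130 in fed mice (SD, n = 3 each). Frozen over fresh, the ratio ran from 1.03 for Otc to 1.41 for Cps1.

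At several genes the mice of a feeding state kept their order in both preparations. Fasted C had the highest and fasted B the lowest sum at Cps1, Ass1 and Arg1 in frozen and in fresh liver alike, and fed C had the lowest of the fed mice at these genes and at Asl. For Arg1 the sums were 2098, 1802 and 2419 in frozen fasted and 1876, 1687 and 2104 in fresh fasted libraries (A to C). They were 2286, 2102 and 1793 in frozen fed and 2220, 2020 and 1806 in fresh fed libraries. By single peaks, fasted C was the highest fasted mouse in both preparations in 32 of 67 peaks (47.8%, beside 23.0% of all peaks). Fasted B was the lowest in 29 (43.3%, beside 18.9%), and fed C was the lowest fed mouse in 30 (44.8%, beside 17.2%). For these mice depth went the other way, with 3.69 (frozen) and 6.86 (fresh) for fasted C, 9.20 and 14.5 for fasted B, and 8.97 and 11.6 for fed C, in units of 1e+06 reads, the deepest of the fed libraries. Fed B had the least depth of the fed mice, 4.98 and 5.85. It was the highest fed mouse in 10 peaks (14.9%, beside 16.2% of all peaks) and the lowest in 13 (19.4%, beside 15.9%). Fed A, at 6.62 and 8.71, was the highest in 19 (28.4%, beside 14.0%). The part of depth in this order was not tested.

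**Figure D5:**
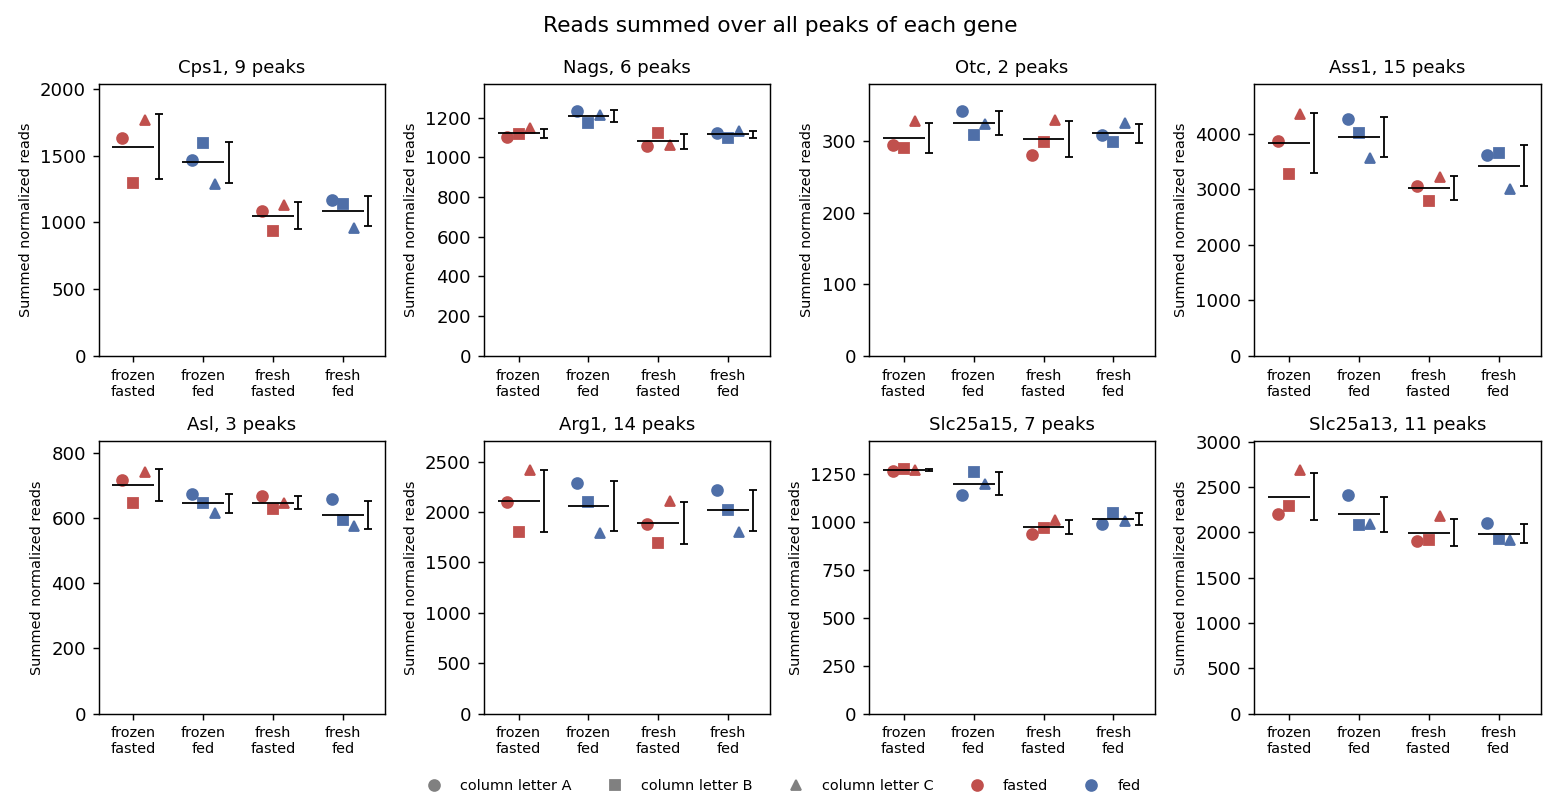
Normalized reads summed over all peaks of each gene in every library, with the mean as a line and the SD (n = 3) as a bar, frozen groups left of fresh ones and fasted left of fed, and symbols for the column letters. At Cps1, Ass1 and Arg1 the triangle (C) is the highest fasted and the lowest fed mouse in both preparations.

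A profile over the 12 libraries was taken as the mean of the centred log2 values of the 8 start peaks, and it mainly separated frozen (0.05 to 0.21) from fresh (-0.18 to -0.05). Pearson's r of a gene's own start peak with this mean, which contains that peak, was 0.962 for Cps1, 0.944 for Ass1, 0.814 for Slc25a13, 0.760 for Asl, 0.732 for Slc25a15, 0.664 for Arg1, 0.110 for Nags and -0.596 for Otc, so the start peaks of Nags and Otc did not follow it. Among start peaks of 11073 other genes, the 5 most like it were those of Gm5424 (r = 0.983), Fzr1 (0.981), Lrrc28 (0.980), Ccser2 (0.979) and Prr14l (0.978). The first is the window at the Ass1 start described above and shares reads with an Ass1 peak. These correlations describe libraries that share mice and preparations.

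Beside the cycle itself, 2 lists of related genes were counted. Of 203 peaks of 28 genes for ammonia, glutamate and arginine handling, 29 were higher and 37 lower in fasted mice (32.5% called, beside 34.6% of all peaks, with 16.5% higher and 18.1% lower), with a median log2 difference of 0.02, beside 0.05 for all peaks. Arg2, Aldh18a1, Slc25a2 and Rhcg had no listed peak. The genes named from both lists were picked after their values were seen. Gpt2, the mitochondrial alanine aminotransferase, had 6 of 11 peaks higher, and Slc25a22, a mitochondrial glutamate carrier, 4 of 9 higher and 1 lower. Glul had 3 of 8 higher. Slc38a4, an amino acid transporter, held the steepest rise of the list, 2.24 ± 0.23 at a peak at -19.5 kb (limma, adjusted p = 0.000230). Lower peaks were found at Car5a, the mitochondrial carbonic anhydrase that supplies bicarbonate to CPS1 (4 of 6), at Prodh, which starts proline breakdown (4 of 9), at Slc38a3, a glutamine transporter (4 of 8), and at the liver glutaminase gene Gls2 (3 of 5).

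Of 175 peaks of 14 genes for factors known to regulate the cycle, 29 were higher and 49 lower in fasted mice (44.6% called, beside the same background of 34.6%), with a median log2 difference of -0.05. Cebpb, which encodes a C/EBP factor, had 8 of 8 peaks higher, Foxa1 6 of 12 (with 2 lower) and the coactivator gene Ppargc1a 6 of 17. Cebpd had a peak 2.42 kb into the gene higher by 2.78 ± 0.23 (limma, adjusted p = 0.000140). Lower peaks were found at Nr3c1, the glucocorticoid receptor gene (13 of 33), Foxa2 (12 of 28), Ppara (8 of 21, with 3 higher), Cebpa (7 of 19, with 1 higher) and Hnf4a (2 of 7).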

How the data were processed

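Per the labels' protocols, about 25000 bead-bound nuclei per reaction went into a 30 min transposition at 37 °C, followed by 12 cycles of PCR. The submitters' processing notes list mm10, HOMER, DESeq2, SAMtools and BWA 0.7.5a-r405 with no role or order. How peaks were called and duplicates treated, and whether reads were shifted for the transposase, is not given in the sources used here. The authors deposited 1 table of 52530 merged peaks. Its signal columns hold reads per peak that the authors divided by 1 size factor per library, per the file headers and the values, which are whole multiples of 1 step per library. Depths here take that step as 1 read and cover no error beyond that of counting, as PCR copies of a molecule may count more than once. Within each preparation the authors' table also gives a log2 fold change and an adjusted p-value, by a method the file does not give. The deposited peak score was not used.

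Values were taken as log2(value + 1), a scale that understates changes of low peaks, with no filter. The tool was limma 3.58.1 under R 4.3.3, two-sided, with a trended prior. All 52530 peaks entered each fit. Fasting used the mean of the frozen and fresh library of each letter, 3 against 3 mice. Freezing and the interaction used all 12 libraries without the mouse. Their standard errors and p-values ignore the pairing of libraries by mouse unless the replicate block is named. The labels number the mice, but the columns carry letters that match no number. Columns of one letter and feeding state deviated together (r 0.329 to 0.640, highest r between letters 0.0213), so letters were treated as mice, which rests on the data alone. Where no label says otherwise, p-values of the fasting tests without the block measure the spread between the mice of a feeding state. Those of freezing and the interaction without the block measure a spread between libraries that includes differences between mice. Tests were checked on simulated data, drawn independently for each library without a mouse effect. That check therefore does not cover the pairing by mouse or the spread between mice.

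Named peaks are, for each gene, the one nearest to the start, those of lowest p for fasting and freezing and all called for fasting. The members and lists were chosen with earlier results of these data known. Motifs were planned for peak windows and were searched in RefSeq promoters instead, and peak sequences are not analysed here. Gene bodies and promoters came from RefSeq GRCm38.p6, in which all 8 symbols matched. Alternatives were pseudocounts of 0.5 and 5, leaving out the lowest 25% of peaks, scaling to peaks near gene starts, quantile normalization, each mouse left out, the replicate block and all 12 libraries in 1 fit.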

Additional observations from a re-analysis of the deposited data

How the results depend on the processing

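Pseudocounts of 0.5 and 5 left the counts of calls among the 67 peaks unchanged. Scaling to peaks near gene starts gave 0 higher and 14 lower peaks for fasting over both preparations and 1 higher in frozen liver. It gave 1 higher and 20 lower in fresh liver, and 10 lower for freezing. Over all peaks it called 16910 for fasting over both preparations, 14004 in frozen liver, 14801 in fresh liver and 32824 for freezing. Quantile normalization gave 2 higher for fasting in frozen liver and 6 higher in fresh liver, with 14172 and 16567 called over all peaks. Leaving out the lowest 25% of peaks, which holds 7 of the 67, gave 5 lower in frozen liver. There 9682 of the 39397 remaining peaks were called. With each mouse left out in turn, fasting calls over both preparations were 1 to 6 higher and 6 to 15 lower. They were 1 to 6 higher and 3 to 13 lower in frozen liver. In fresh liver they were 2 to 4 higher and 4 to 15 lower. Freezing calls were 24 to 28 higher and 4 to 9 lower. Over all peaks these fits called 11500 to 17672, 8711 to 14001, 9747 to 14642 and 29530 to 32767, in that order. With the mouse as a replicate block, fasting was fitted to all 12 libraries with a shared correlation within mice. That fit called 6 higher and 11 lower, and 20336 of all 52530 peaks. Fasted and fed mice are different animals, so that comparison is not paired. For freezing and the interaction the block compares libraries within mice. It gave 33 higher and 13 lower for freezing and 1 lower for the interaction, with 36805 and 395 called over all peaks. Under quantile normalization the freezing difference turned round at the Nags start peak (-0.13) and at the Asl start peak (-0.0097), and the cause was not tested. Of 33 freezing calls 22 held under every alternative, 19 higher and 3 lower. In the library of least depth a median peak had 51 reads and the lowest peak of these genes 5, which limits what can be said of weak sites.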
